A study of Mus musculus with 2 samples.

Results

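The Gnas imprinted locus was examined as an 80 kb window of mouse chromosome 2, from 174100001 to 174180000 in the mm9 build, in a map of 5-hydroxymethylcytosine (5hmC). Its members were all cytosines listed in the deposited table inside that window, chosen by position alone. There were 827 of them among 13025343 listed cytosines of the genome, with 9954 of 176006227 reads. The DNA came from E14, an established mouse embryonic stem cell line, at passage 12. 2 libraries of this 1 group were prepared by adding glucose to 5hmC and cutting the DNA beside it with the endonuclease AbaSI. No other genotype, treatment or time and no library without the glucose step is among the samples used here, and the table gives both libraries as 1 count per cytosine. All intervals below are therefore exact intervals at a level of 95% for counting error alone. They leave out replicate error, which could not be computed, so they are too narrow. Intervals for reads may be so for a further reason, since PCR copies are not independent molecules and their treatment is not given.

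Gnas encodes the stimulatory G protein alpha subunit, which couples hormone receptors to adenylyl cyclase. It is the downstream member of a complex of alternative promoters on the plus strand. In textbook order these are Nesp, which is transcribed from the maternal allele, Gnasxl and exon 1A, which are transcribed from the paternal allele, and Gnas itself, which is transcribed from both alleles in most tissues. Nespas is an antisense transcript of the paternal allele. It starts near the Gnasxl promoter and runs on the minus strand across Nesp. The regions of the Nespas start and of exon 1A carry 5-methylcytosine, from which TET enzymes make 5hmC, on the maternal allele. The rule that chose the window places the complex, Gnas with Nespas, at about 174109800 to 174172300. The nearest protein-coding neighbours in RefSeq (GRCm38.p6) are Npepl1 on the Nesp side and Nelfcd on the Gnas side. Reads were not assigned to alleles, and no mm9 annotation of the single promoters was used here, so the positions below are not assigned to them.

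The RefSeq promoter table has 4 starts of Gnas on the plus strand, and their promoter sequences show how much CG a window around a start can hold. Each sequence runs from 250 bases before to 50 bases after the start, 5′ to 3′, and its CG dinucleotides are in capitals. The first is the most upstream start, the last the most downstream one, and the other is the second start. The third start lies 19 bases after the second and is not shown. Chromosome 2 coordinates of these sequences are those of GRCm38.p6. They were not converted to mm9, so they are not to be read directly beside the positions of the reads.

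First start, chr2:174284070-174284369: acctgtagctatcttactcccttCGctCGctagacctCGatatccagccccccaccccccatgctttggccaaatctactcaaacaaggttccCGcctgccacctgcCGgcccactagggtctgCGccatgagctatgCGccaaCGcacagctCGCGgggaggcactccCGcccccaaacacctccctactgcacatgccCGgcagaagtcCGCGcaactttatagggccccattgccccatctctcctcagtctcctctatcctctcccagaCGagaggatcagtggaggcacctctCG
Second start, chr2:174327499-174327798: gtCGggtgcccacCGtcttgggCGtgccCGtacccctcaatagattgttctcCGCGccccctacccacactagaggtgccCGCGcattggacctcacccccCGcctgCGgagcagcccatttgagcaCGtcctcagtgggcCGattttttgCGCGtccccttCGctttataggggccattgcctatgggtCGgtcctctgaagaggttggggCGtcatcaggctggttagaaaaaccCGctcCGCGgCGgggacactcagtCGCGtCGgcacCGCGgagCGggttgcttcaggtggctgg
Last start, chr2:174329756-174330055: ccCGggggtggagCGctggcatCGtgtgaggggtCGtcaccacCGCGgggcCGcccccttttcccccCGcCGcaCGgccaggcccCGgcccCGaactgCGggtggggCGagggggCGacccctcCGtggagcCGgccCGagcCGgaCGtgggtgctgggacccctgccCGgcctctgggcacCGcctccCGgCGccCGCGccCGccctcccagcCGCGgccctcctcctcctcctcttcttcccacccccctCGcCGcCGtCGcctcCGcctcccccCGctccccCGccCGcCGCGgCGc

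These sequences hold 16, 27 and 40 CG dinucleotides, against a median of 7 over the 32851 promoters of the table. At least as many CG as in the last one were found in 3.91% of those promoters. Each sequence was laid over the 79701 positions of the window, to see where all listed cytosines fell on a matching dinucleotide of the right strand. The 17454 positions that covered no listed cytosine were left out, so a start lying there could not be found. For the last start 2607 of the other positions matched in this way, so the pattern of listed cytosines did not fix its place. At none of them did it cover more than 6 listed cytosines, of the 80 cytosines in its CG dinucleotides. The highest number was 4 of 32 for the first start and 5 of 54 for the second. No 300 bp of the window held more than 18 listed cytosines. If the mm9 sequence is the same, most CG cytosines around the second and the last start thus had no line in the table. The lowest count in the table is 2 and the authors' minimum for listing is unknown, so a missing line cannot be read as a count of 0. Nespas, named Gnasas1 in RefSeq, had no entry in the promoter table.

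The locus as a whole carried about as many listed cytosines as its surroundings and more than most of the genome. It had 10.3 listed cytosines and 124.4 reads per kb, against 9.25 cytosines and 118.0 reads per kb in the 300 kb on either side. The ratio to the flanks was 1.12 for cytosines (1.04 to 1.20) and 1.05 for reads (1.03 to 1.08). Segments of 10 kb differed far more than this. The 60 segments of the flanks ranged from 111 to 4065 reads with a median of 895, and the 8 segments of the locus from 421 to 2394 with a median of 1052.5. In 6 windows of 80 kb next to the locus, 3 on each side, there were 577 to 856 cytosines and 6926 to 12248 reads, so the 827 and 9954 of the locus lay within the spread of its neighbours. The ratio for reads turned below 1 against the left flank alone (0.988) and against the nearest 100 kb on both sides (0.929). Across the autosomes the median window of 80 kb had 308 cytosines and 3251 reads. Windows with at least as many cytosines as the locus made up 16.7% of the autosomal windows, and those with at least as many reads 20.8%.

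**Figure D1:**
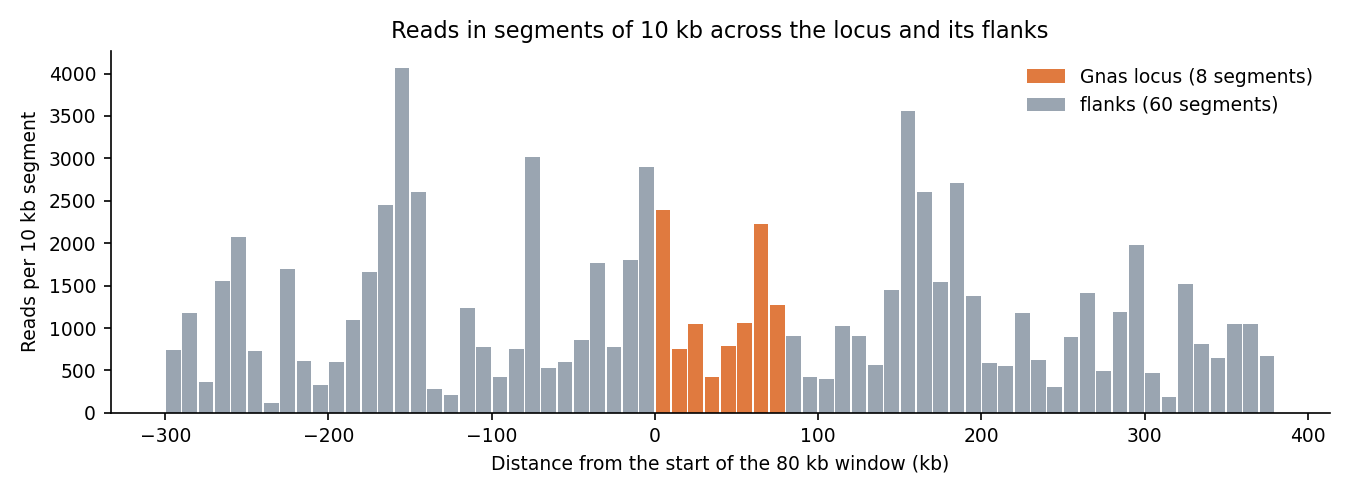
Reads in segments of 10 kb (y axis, linear) against the distance from the start of the 80 kb window in kb, for the locus (orange bars, 8 segments) and its flanks (grey bars, 60 segments). The segments of the locus, from 421 to 2394 reads, lie within the range of 111 to 4065 reads in the flanks.

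Within the window, reads were highest at the upstream edge and in the last part of the complex, and lower between them. The segment from 174100001 to 174110000, almost all of it upstream of the complex, had 2394 reads on 154 cytosines. The next segments, at the upstream end of the complex, had 750, 1045 and 421 reads. The lowest, from 174130001 to 174140000, held 46 cytosines. The segments from 174140001 and 174150001 had 785 and 1060 reads, and there were 2224 reads on 155 cytosines between 174160001 and 174170000. The last segment, from 174170001, had 1275 reads. Reads per cytosine followed the same course, with a median of 11 in the segments starting at 174100001 and 174160001, 10 in the last and 7 to 7.5 in the other 5. Inside the extent of the complex there were 114.1 reads per kb, against 161.4 in the rest of the window, a ratio of 0.707 (0.676 to 0.738). The sides of the complex differed, and the direction turns on which is taken. Upstream there were 2392 reads in 9.8 kb, or 244.1 per kb, and downstream 433 in 7.7 kb, or 56.2 per kb. The ratio of the complex was 0.467 (0.446 to 0.490) to the upstream side and 2.03 (1.84 to 2.24) to the downstream side. For listed cytosines the ratio to both sides together was 0.914 (0.777 to 1.08), an interval that includes 1.

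**Figure D2:**
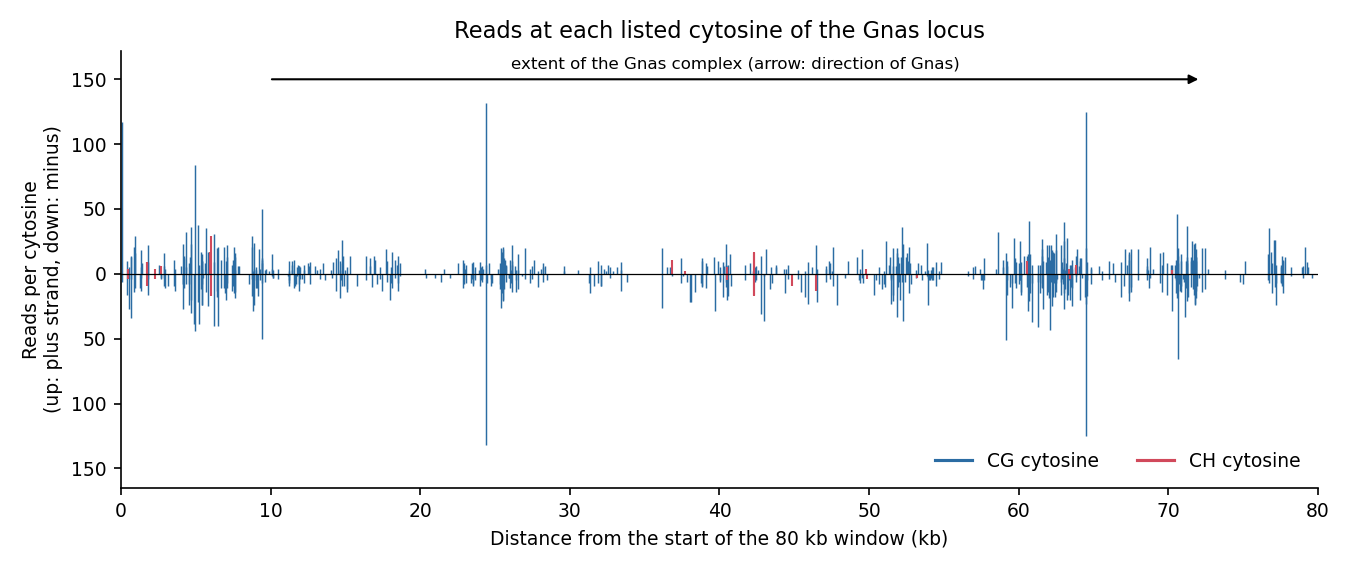
Reads at each of the 827 listed cytosines (y axis, plus strand upward and minus strand downward) against the distance from the start of the window in kb. Blue lines are CG and red lines CH cytosines, the arrow marks the extent of the complex, and the tallest lines, with 132 and 125 reads on each strand, are pairs of cytosines with equal counts.

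Bins of 1 kb resolved this into separate runs. The 80 bins had a median of 8 cytosines and 72.5 reads, with quartiles of 37.5 and 181.75 reads. The 600 bins of the flanks had medians of 7 cytosines and 64 reads. A bin was counted as rich when it held at least 86 reads, which is 2 times the median of the autosomal bins with a listed cytosine. By this measure 34 of 80 bins of the locus were rich, or 42.5% (31.5 to 54.1), against 24.6% of all autosomal bins and 42.7% of the bins of the flanks. The locus was therefore above the genome and level with its neighbourhood.

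5 runs of 3 or more rich bins were found. The run from 174104001 to 174110000, just upstream of the complex, had 1784 reads on 106 cytosines. Its bin from 174104001 to 174105000 had the most reads of the window, 482 on 22 cytosines. The run from 174159001 to 174165000 had 2035 reads on 131 cytosines, or 20.4% of the reads of the locus. In it the bin from 174164001 had 422 reads on 17 cytosines, the bin from 174162001 had 412 on 30, and the bin from 174163001 had 367 on 28. Most of the 422 reads were on 2 cytosines with 125 each, at 174164506 and 174164528. The run from 174169001 to 174172000, at the downstream end of the complex, had 894 reads, of which 461 lay in the bin from 174171001. These 3 runs had 11.5 to 13.8 listed CG dyads per kb. The others, from 174123001 to 174127000 with 866 reads and from 174151001 to 174154000 with 612, had 16 and 14 dyads per kb. In the former, most of the 339 reads of the bin from 174124001 were on 2 cytosines with 132 each, at 174124361 and 174124383. Without them that bin would not be rich, and no run of 3 rich bins would be left there. Reads per cytosine were lower in the last 2 runs, with medians of 7 and 8, against 13, 11 and 12.5. The 6 bins with the most reads, which include the bin from 174105001 with 395, held 25.5% of the reads of the locus.

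**Figure D3:**
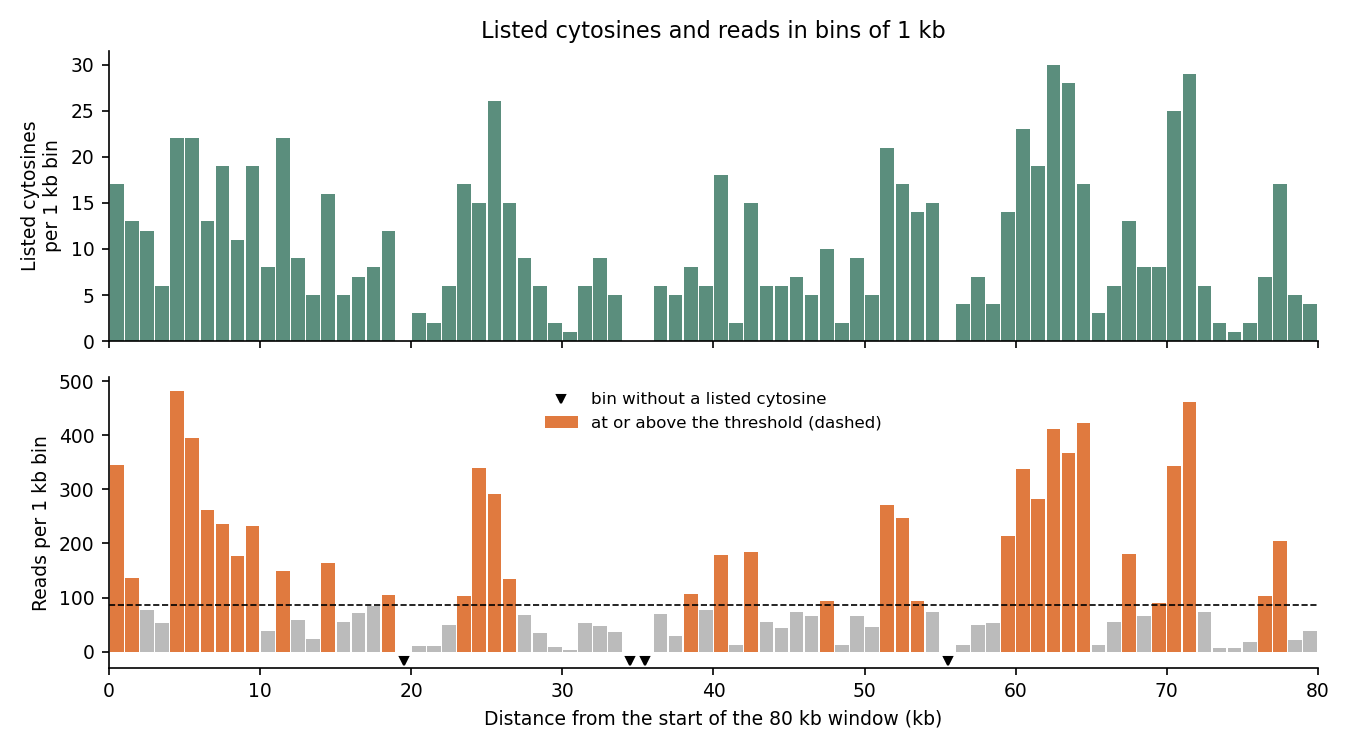
Listed cytosines (upper panel) and reads (lower panel) in the 80 bins of 1 kb against the distance from the start of the window in kb. In the lower panel orange bars reach the threshold of 86 reads (dashed line), grey bars do not, and black triangles mark the 4 bins without a listed cytosine.

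Few parts of the locus had no listed cytosine. 4 of 80 bins were empty, or 5% (1.38 to 12.3), against 27.3% of autosomal bins and 5.83% of the bins of the flanks. They were the bins starting at 174119001, 174134001, 174135001 and 174155001, and no 3 empty bins followed each other. The longest distance between neighbouring listed cytosines was 2332 bp, from 174133817 to 174136149. The next were 1817 bp from 174154785 to 174156602, 1680 bp from 174118642 to 174120322, 1591 bp from 174175116 to 174176707 and 1138 bp from 174172683 to 174173821. The first 3 lay inside the complex and the other 2 downstream of it. In all, 7 distances were above 1 kb and together spanned 13.4% of the window. In the flanks 50 such distances spanned 14.3%, the longest being 6130 bp, while on the autosomes such distances spanned 45.5%. Whether a stretch without a line lacks CG, reads that can be placed, or 5hmC was not tested.

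A CG is a dyad, with a cytosine on each strand, and both can carry 5hmC. Of 590 dyads with a listed cytosine, 208 were listed on both strands, or 35.3% (31.4 to 39.3). The flanks had 37.8% (36.3 to 39.4) and the autosomes 37.4%, both within the interval of the locus. Of the remaining dyads, 209 were listed on the plus strand only and 173 on the minus strand only. Dyads on both strands had a median of 10 reads per strand, and those on 1 strand had 7.

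The share on both strands was uneven along the locus. It was 53.8% in the segment from 174100001 and 49.5% in that from 174160001, but 16.1% from 174120001 and 20.5% from 174150001. In the flanks the segments ran from 10.7% to 60.8%. Some of the low shares were in places where dyads were dense. Of 17 bins with 12 or more listed dyads, 6 had at most 15% of them on both strands, or 35.3% of the dense bins (14.2 to 61.7). These limits were set after the values were seen. Among all autosomal bins with 12 or more dyads, 2.12% did, and in the flanks 2 of 85 did. The 6 bins formed 2 stretches of 3 kb inside the complex. From 174123001 to 174126000, 6 of 52 dyads were on both strands, or 11.5% (4.35 to 23.4), while 24 were on the plus strand only and 22 on the minus strand only. From 174152001 to 174155000, 2 of 43 dyads were on both strands, or 4.65% (0.568 to 15.8), with 22 on the plus strand only and 19 on the minus strand only. Without these stretches the segment from 174120001 had 8 of 35 dyads on both strands, or 22.9% (10.4 to 40.1), and that from 174150001 had 15 of 40, or 37.5% (22.7 to 54.2). The segment from 174130001, with no dense bin, was at 22.2% (8 of 36), so low shares also occurred where dyads were sparse. The single bins starting at 174153001 and 174154001 had 0 of 13 and 0 of 15 on both strands, and the second of them borders the empty bin from 174155001. The other 11 dense bins of the locus ran from 18.75% to 71.4%, with a median of 46.7%. 3 of them were under 30%, those from 174109001 with 3 of 16 dyads on both strands, from 174111001 with 4 of 18 and from 174126001 with 3 of 12, so the limit of 15% does not set the 6 bins apart by a wide margin. Over whole runs of rich bins, 44 of 83 dyads were on both strands from 174159001 to 174165000 (53.0%), and 34 of 69 from 174104001 to 174110000 (49.3%).

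**Figure D4:**
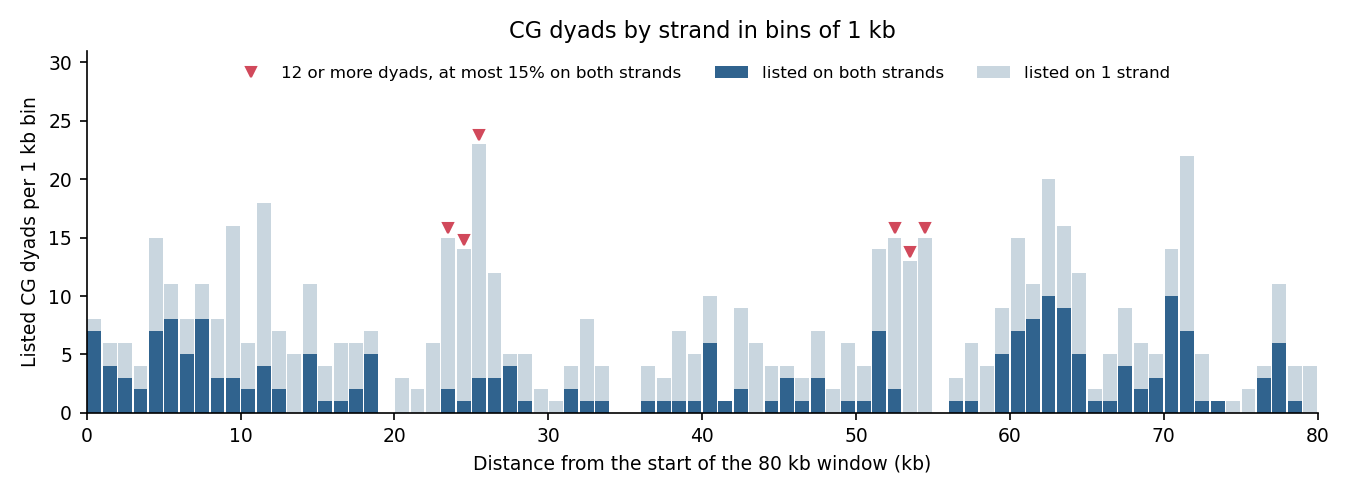
Listed CG dyads per bin of 1 kb, split into those on both strands (dark) and on 1 strand (light), against the distance from the start of the window in kb. Red triangles mark the 6 bins with 12 or more dyads of which at most 15% are on both strands, in 2 groups of 3 bins.

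Both stretches also had low medians of reads per cytosine, 7 and 5.5, against 9 for the locus. Their means were 12.6 and 9.02, against 12.0 for the locus. The first mean includes 2 cytosines with 132 reads each, at 174124361 and 174124383. Without them it too would lie below that of the locus. The part of these low counts in the low shares was examined only by leaving out the lowest ones. With cytosines under 5 reads left out, 2 of 11 dense bins of the locus had a low share, or 18.2% (2.28 to 51.8), an interval that includes the 2.71% of dense autosomal bins. This minimum also removed strands of dyads and lowered the number of dense bins from 17 to 11. It therefore cannot tell what part the low counts had. Both stretches were rich in 1 class of the authors' codes, 2CG. In the locus, sites of this class are mostly listed as cytosines on opposite strands 21 to 24 bp apart. The cytosines of such a pair belong to different dyads, so choosing bins with few dyads on both strands can favour the class. Its shares in the stretches are therefore not independent of how the stretches were chosen. In the stretch from 174123001, 33 of 58 cytosines were of that class, or 56.9% (43.2 to 69.8), and in that from 174152001, 16 of 46, or 34.8% (21.4 to 50.2). In the flanks it was 8.88% (8.15 to 9.66). With the class left out, 3 of 12 dense bins of the locus had a low share, or 25% (5.49 to 57.2), against 2.96% on the autosomes.

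Over the whole locus 2CG made up 110 cytosines, or 13.3% (11.1 to 15.8), against 8.88% in the flanks and 7.63% on the autosomes. Of these, 49 lay in the 2 stretches, and outside them the class made up 61 of 723 cytosines, or 8.44% (6.51 to 10.7), level with the flanks. Its median was 10 reads, against 17 in the flanks and 16 on the autosomes. Of its 54 plus-strand cytosines, 49 had a partner of the class 21 to 24 bp to the right, at 22 bp in 22 cases and at 23 bp in 14. The 2 counts were equal in 44 of these 49 pairs, and whether such a pair stands for the same reads is not stated in the sources used here. The other CG classes were close to the flanks, with 34.3% of cytosines in 1CG against 33.7% and 48.9% in CGCH against 51.7%.

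The highest counts of single cytosines came from such pairs. The plus-strand cytosine at 174124361 and the minus-strand cytosine at 174124383 had 132 reads each (110 to 157), and the other strand of neither CG was listed. These counts lay in the first of the stretches with few dyads on both strands. The pair at 174164506 and 174164528 had 125 reads each (104 to 149), and here the other strands were listed with 23 and 20 reads. The fifth was at 174100060 on the plus strand, outside the complex, with 117 reads, against 6 on the other strand at 174100061. Summed over both strands, the 5 dyads with the most reads were those at 174164506 with 148, at 174164527 with 145, at 174124361 and 174124382 with 132 each, and at 174104920 with 128. The last of these had 84 reads on the plus and 44 on the minus strand, and was the only 1 of the 5 outside the class 2CG. No cytosine of the locus was among the top 0.1% of the table, which have more than 168 reads.

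The strands were compared because Gnas and Nespas are transcribed in opposite directions. Over the locus 52.0% of the reads (51.0 to 53.0) and 52.5% of the cytosines (49.0 to 55.9) were on the plus strand, the coding strand of Gnas. In the flanks 49.7% of the reads were (49.4 to 50.1). The intervals for reads do not overlap, but the difference is small beside the spread along the chromosome. Segments of 10 kb ran from 41.8% to 57.3% in the locus and from 41.5% to 66.5% in the flanks. Inside the complex the share was 50.7% (49.6 to 51.9). In the segment from 174130001 it was 41.8%, and in the segment from 174110001 57.3%. Within the 208 dyads listed on both strands, 103 were higher on the plus strand and 11 were equal. In 40 of them, or 19.2% (14.1 to 25.3), the strands differed by more than 3-fold, against 22.4% (20.3 to 24.7) in the flanks. The Spearman correlation of the strands was 0.28 over these dyads and 0.23 in the flanks. Dyads share libraries and depth, so these are descriptions.

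**Figure D5:**
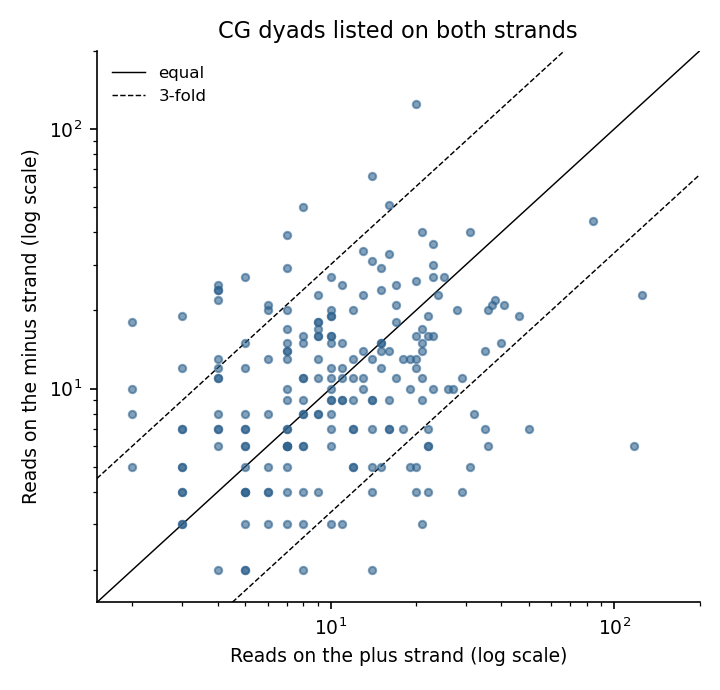
Reads on the minus strand against reads on the plus strand, both on log scales, for the 208 CG dyads listed on both strands (points). The solid line marks equal reads and the dashed lines a 3-fold difference, beyond which 40 dyads lie.

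Cytosines outside CG were few. CG made up 96.5% of the listed cytosines (95.0 to 97.6) and 97.4% of the reads, against 94.3% (93.7 to 94.9) and 96.6% in the flanks. The other 29 cytosines, called CH, were 14 in CT, 12 in CA and 3 in CC. In the flanks CA was the most frequent, with 168, before CT with 94 and CC with 52. CH cytosines had a median of 7 reads and CG cytosines 9. The highest CH count was 29 reads, at the CT on the plus strand at 174105985, outside the complex. CH cytosines lay in 15 of the 80 bins, and 11 of the 29 were in the first 6 bins, from 174100001 to 174106000. The other 18 were in the last 44 bins, from 174136001 on, and the bins between hold 276 listed cytosines, all in CG. These limits were drawn around the longest run of bins without CH, so the absence of CH there is fixed by the choice. That run includes the upstream end of the complex and the first stretch with few dyads on both strands. Of the CH cytosines, 9 pairs of the class 2CH stood 21 to 24 bp apart on opposite strands, and all 9 had equal counts.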

How the data were processed

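Genomic DNA of E14 cells was profiled in 2 libraries titled replicates, with no label on whether these were separate cultures. CASAVA 1.8.2, Bowtie and the mm9 build are named in the submitters' processing notes. Not given in the sources used here are read filters, the treatment of PCR copies, the joining of the libraries and how reads were assigned to cytosines. The values are unscaled whole-number counts of reads per cytosine, as deposited by the authors, 1 column for the whole series. Positions, given as start and start plus 1, were read as counted from 0 and are printed counted from 1.

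All cytosines were kept. Dyads joined a plus-strand CG cytosine with a minus-strand one 1 base to its right. Autosomal bins ran from the first to the last listed cytosine of each of 19 autosomes. Shares have exact Clopper-Pearson intervals, and ratios of rates conditional exact binomial ones. No test between samples was possible. Functions were tested on simulated dyads. Named regions were the 6 bins, 5 dyads and 5 cytosines with the most reads, the 5 longest gaps, and runs of 3 or more empty or rich bins. The members, lists and limits were chosen with earlier results of these data known. Promoter sequences are RefSeq's (GRCm38.p6) and are shown for their CG content. None was placed in the window, since 1004 to 2607 positions matched for each. The second start reached its highest number of listed cytosines, 5, at 1 position only, but 1679 positions matched for it. Alternatives were minimum counts of 5 and 10, the top 0.1% of sites left out, a weight of 0.5 for 2CG and 2CH, other bins and flanks, and the extent of the complex alone. Analyses used Python 3.11.15, numpy 2.4.6, pandas 2.3.3, scipy 1.17.1 and matplotlib 3.10.9.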

Additional observations from a re-analysis of the deposited data

How the results depend on the processing

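For 11 results, 65 alternatives were run, of which 40 stayed within the counting interval of the reported value and 25 moved out of it. No fit without a replicate was possible, since the table pools the libraries. A minimum of 5 reads gave a median of 11 reads per cytosine and a longest gap of 2763 bp. A minimum of 10 reads gave a median of 16, a longest gap of 4352 bp, 25% of bins without a listed cytosine (autosomes 49.6%), 27.5% of bins rich (autosomes 15.5%), 25% of dyads on both strands, a ratio of reads to the flanks of 1.02 and a ratio of the complex to the rest of the window of 0.618. That last ratio was 0.655 with a weight of 0.5 for 2CG and 2CH, and 0.914 with each site counted once, which gave 1.12 to the flanks. The ratio to the flanks for cytosines and reads was 1.03 and 0.929 with flanks of 100 kb, and 1.92 and 1.44 against all of chromosome 2 outside the locus. For reads it was 0.988 against the left flank and 1.13 against the right one. In bins of 2 kb 60% were rich (autosomes 28.9%). Inside the complex alone 31.1% of dyads were on both strands and 50.7% of reads on the plus strand. The longest gap on the plus strand alone was 2717 bp. What caused these moves was not tested. The remaining settings were added once the values had been seen. The ratio of the complex was 0.467 to the upstream side of the window and 2.03 to the downstream side. Without the 6 dense bins with few dyads on both strands, 40.4% of the dyads were on both strands. The share of dense bins with a low share was 35.3% as reported. It was 26.1% with 10 or more dyads (autosomes 3.46%), 17.6% at a limit of 10% (autosomes 1.27%), 41.2% at 20% (autosomes 5.06%), 31.2% with bins shifted by 500 bp (autosomes 2.11%), 18.2% with at least 5 reads and 25% without 2CG. All of these values lay above the autosomal share, on 11 to 23 dense bins, but the interval at 5 or more reads includes it. Depth limits the text to listed cytosines, with a median of 9 reads each.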
